A study of Mus musculus with 77 samples.

Results

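RNA on the ribosomes of mouse spermatogonia was compared between testes taken 4h after an injection of retinoic acid (RA) and testes taken before it. The 2 arrays at 4h and the 2 arrays at time 0 were chosen by their labels (Stra8-cre line, immunoprecipitated RNA, 4h or 0) and are 4 of the 77 arrays of the series. All animals of both groups were FVB/N mice that carried a Stra8-driven Cre and the RiboTag allele, which adds an epitope to a ribosomal protein in cells where Cre has acted. All of them had received BDAD, a bis-dichloroacetyl diamine that blocks RA synthesis, for 9 days. The 4h animals were then injected with RA, and the time 0 animals were killed without an injection. Immunoprecipitated (IP) RNA is the RNA that came down with the tagged ribosomes, and total RNA is that of the whole testis.

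The same contrast was also read in IP RNA of the Ngn3-cre RiboTag line (2 arrays at 4h, 2 at time 0), whose animals were C57BL/6, and in total RNA of the Stra8 line (3 arrays labelled 4h, 4 at time 0) and of the Ngn3 line (2 and 2). Levels in IP RNA of the Amh-cre RiboTag line at time 0 (FVB/N, 2 arrays), where the tag marks Sertoli cells, are given beside a few genes. Line and strain cannot be told apart between the Stra8 and Ngn3 arrays. There were no vehicle-injected or time-matched uninjected animals, so RA, the injection, age and the end of BDAD cannot be told apart in a change from time 0. The tag marks only cells in which the Stra8 or Ngn3 promoter has driven Cre, and which germ cells those were is not given in the labels, nor is the age of the animals. The labels do not state whether the replicates are different animals, and the p-values measure only the spread between these arrays, which may be technical.

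RA is made from vitamin A through retinol and retinaldehyde, enters the nucleus and binds heterodimers of RA receptors (RARs) and retinoid X receptors (RXRs) that sit on direct repeats in DNA. Among the genes it switches on in most tissues are Cyp26a1, which breaks RA down, Rarb, which encodes one of its receptors, and Dhrs3, which turns retinaldehyde back into retinol. In the testis RA starts the differentiation of spermatogonia and induces Stra8, a gene needed for entry into meiosis.

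Values are intensities on a linear scale, and changes are log2 differences, 4h minus time 0, with the SE of the fit. Called genes had a limma adjusted p (Benjamini-Hochberg) under 0.05 and differed at least 2-fold. The 4 arrays were germ cell preparations with some somatic RNA. The germ cell helicase Ddx4 stood at 5411 and 5546 at 4h, against 5552 and 5449 at time 0. Sertoli cell Amh stood at 891 and 856 at 4h, against 699 and 1521 at time 0, and smooth muscle actin Acta2 of peritubular cells at 2612 and 2282, against 2088 and 3831. Amh in total RNA at time 0 lay between 4513 and 5442. At time 0, replicate 2 thus had higher levels of these 2 somatic genes than replicate 1, and both 4h arrays lay between them.

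Of 19938 genes tested, 46 rose (0.231%) and 2 fell (0.01%), so 0.241% of all genes were called. The median change of all genes was -0.04. Cyp26a1, Rarb and Stra8, taken as markers of the RA response with earlier results known, had the largest increases. The arrays of the 46 genes did not overlap between 4h and time 0, which was so in the higher direction for 22.1% of all genes tested and in the lower direction for 35%.

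Cyp26a1, the RA hydroxylase, had 623 and 720.4 at 4h, against 88.8 and 90.1 at time 0. Both 4h arrays lay far above both arrays at time 0, and the change was 2.91 ± 0.43, or 7.49-fold (limma adjusted p = 9.22e-06). Rarb, RA receptor beta, had 623 and 594 at 4h, against 126 and 138 at time 0. Its change was 2.21 ± 0.25, or 4.62-fold (adjusted p = 2.82e-08). Stra8 had 1336 and 1258 at 4h, against 343 and 268 at time 0, a change of 2.10 ± 0.38, or 4.27-fold (adjusted p = 3.96e-04). For Rarb and Stra8, too, the lower of the 4h arrays stood well above the higher time 0 array.

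**Figure D1:**
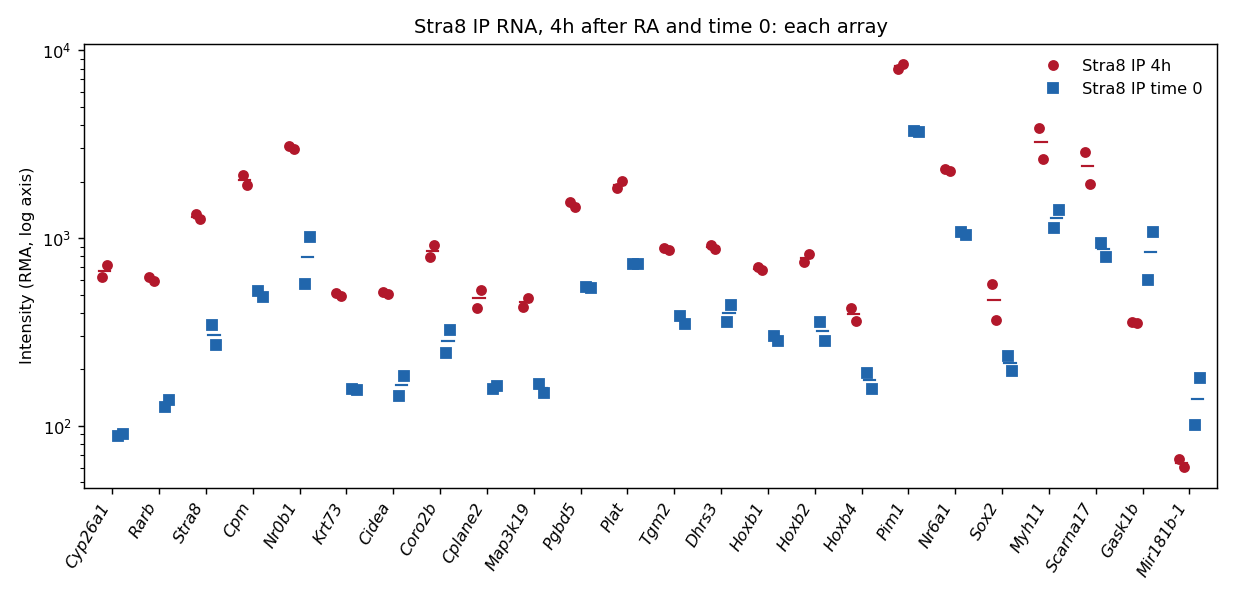
Intensity (RMA, log axis) of 24 called genes on each Stra8 IP array, 4h in red circles and time 0 in blue squares, with a short bar at the mean. The 22 genes that rose have both 4h arrays above both time 0 arrays, as Cyp26a1 with 623 and 720.4 at 4h against 88.8 and 90.1 at time 0, while Gask1b and Mir181b-1 have them below.

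RAR and RXR pairs are known to bind direct repeats of a 6-base half-site, and the strongest ones have 5 bases between the half-sites. The 250 bases before each RefSeq gene start (build GRCm38.p6) were searched on both strands for a direct repeat of the half-site AGGTCA, with A or G allowed as the first base and G or T as the third, and a spacer of 5 bases. Of 32851 such windows, 29 (0.0883%) held it. A window was listed for 33 of the 48 called genes, and 3 of these genes held the repeat, namely Cyp26a1, Rarb and Blvrb, the last in 1 of its 2 windows. With a spacer of 1 base the repeat was in 54 windows (0.164%) and with 2 bases in 57 (0.174%), and none of the called genes was among them. The windows of the 3 genes are shown because they hold the letters of the repeat, which stand in capitals. Each reads along the gene's strand and ends at the base before the gene start. A repeat on the opposite strand appears as its reverse complement.
Cyp26a1 (chr19:37697558-37697807, plus strand): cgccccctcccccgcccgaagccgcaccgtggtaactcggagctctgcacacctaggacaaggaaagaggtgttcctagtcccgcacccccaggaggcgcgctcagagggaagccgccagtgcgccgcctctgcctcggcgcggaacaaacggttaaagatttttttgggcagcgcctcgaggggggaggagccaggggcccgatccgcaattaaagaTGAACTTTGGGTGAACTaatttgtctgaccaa
Rarb (chr14:16575477-16575726, minus strand): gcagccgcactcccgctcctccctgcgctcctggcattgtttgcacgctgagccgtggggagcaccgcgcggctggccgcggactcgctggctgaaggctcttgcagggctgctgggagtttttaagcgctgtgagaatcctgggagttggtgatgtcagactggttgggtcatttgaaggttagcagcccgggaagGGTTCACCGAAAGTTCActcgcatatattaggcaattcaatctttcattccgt
Blvrb (chr7:27452168-27452417, plus strand): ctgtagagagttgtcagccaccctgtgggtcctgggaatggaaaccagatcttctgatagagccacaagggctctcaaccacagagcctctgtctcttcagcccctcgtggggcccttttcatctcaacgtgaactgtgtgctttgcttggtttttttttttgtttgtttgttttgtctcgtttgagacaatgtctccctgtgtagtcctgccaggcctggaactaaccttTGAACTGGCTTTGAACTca
The repeat lay 53 to 37 bases before the start of Rarb on the gene's own strand, and on the opposite strand 32 to 16 bases before Cyp26a1 and 19 to 3 bases before Blvrb. A match describes letters in this window and is not a measured binding site.

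Blvrb, biliverdin reductase B, had 1232 and 1264 at 4h, against 455 and 520.3 at time 0. The arrays did not overlap and the change was 1.36 ± 0.16 (adjusted p = 4.56e-08).

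In each branch of the RA pathway a single measured member was called, beside 0.241% of all genes. Of 12 measured receptors and cofactors only Rarb rose. Rara changed by 0.26 (adjusted p = 0.488), Rarg by 0.24 (adjusted p = 0.589), and the RXR genes Rxra, Rxrb and Rxrg by 0.06, 0.16 and -0.04, none past the threshold. Of the 3 measured RA hydroxylases only Cyp26a1 rose, with Cyp26b1 at 0.12 and Cyp26c1 at -0.18.

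Of 18 measured genes of RA synthesis, storage and transport, only Dhrs3 rose. It had 918 and 871 at 4h, against 358 and 438 at time 0, a change of 1.18 ± 0.30 (adjusted p = 0.0242). Its call was lost in each of the 4 fits without 1 of these arrays, at changes of 1.03 to 1.32. Rdh10, the retinol dehydrogenase that makes retinaldehyde, had 1192 and 1068 at 4h, against 493 and 461 at time 0. These arrays did not overlap either, but the change of 1.24 ± 0.49 did not pass the test (limma adjusted p = 0.254). Its SE rests on the spread within all groups of the series. Lrat, which stores retinol as esters, stood at 0.73 (adjusted p = 0.343), Stra6, a retinol carrier of the cell membrane, at 0.24, and the retinaldehyde dehydrogenases Aldh1a1, Aldh1a2 and Aldh1a3 at -0.65, 0.12 and -0.02. The carotene oxygenase Bco1 passed the test but not the 2-fold minimum (0.35, adjusted p = 0.0409).

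Of 20 measured genes known to be induced by RA, 6 rose (0.231% of all genes did) and none fell (0.01%). The median was 0.12 over the list, so most of the list did not move past the threshold. The 6 were Cyp26a1, Rarb, Stra8, Dhrs3, Tgm2 and Hoxb1. Among them, Cyp26a1, Rarb and Stra8 were the markers chosen with earlier results known. Tgm2, a transglutaminase that crosslinks proteins, had 884 and 865 at 4h, against 383 and 347 at time 0, and changed by 1.26 ± 0.25 (adjusted p = 0.00131). Meis1 (0.08), Meis2 (0.11), Cdx1 (0.04), Nrip1 (0.21), Crabp2 (0.13) and Rarres2 (-0.06), which respond to RA in other tissues, did not pass.

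Hox genes encode the homeodomain factors that set position along the body axis, and they lie in 4 clusters in which the genes nearest one end answer RA first in embryonic cells. Within the Hoxb cluster 3 of 9 measured genes rose, beside 0.231% of all genes. Hoxb1 had 704 and 673 at 4h, against 299 and 283 at time 0 (1.24 ± 0.17, adjusted p = 1.22e-06). Hoxb2 had 745 and 825 at 4h, against 357 and 284 at time 0 (1.30 ± 0.16, adjusted p = 8.78e-08). Hoxb4 had 425 and 363 at 4h, against 192 and 158 at time 0 (1.17 ± 0.11, adjusted p = 7.27e-11). In all 3 genes the 4h arrays stood above those of time 0 without overlap. Hoxb3 had 423 and 397 at 4h, against 389 and 342 at time 0, and its change of 0.17 ± 0.13 did not pass (adjusted p = 0.663). Hoxb5 (0.61, adjusted p = 0.00183) and Hoxb13 (0.78, adjusted p = 1.09e-04), at the far end of the cluster, passed the test but not the 2-fold minimum. Of the 10 Hoxa, 9 Hoxc and 9 Hoxd genes measured none was called, and Hoxa5 passed the test without the 2-fold minimum (0.60, adjusted p = 2.71e-05) at low intensities of 81.4 and 90.8 at 4h, against 61.4 and 52.3 at time 0. The median change was 0.61 over the Hoxb genes, 0.07 over Hoxa, -0.09 over Hoxc and -0.09 over Hoxd, beside -0.04 over all genes.

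**Figure D2:**
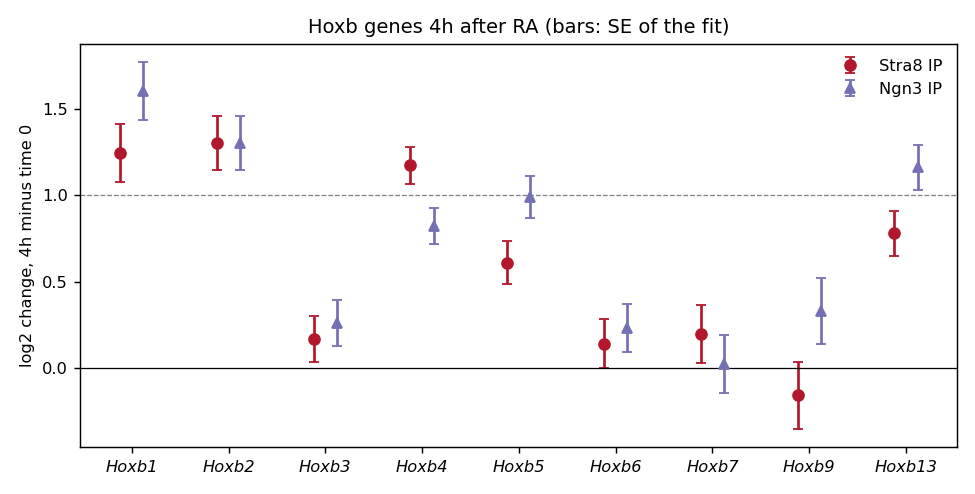
Log2 change at 4h (4h minus time 0) of the 9 measured Hoxb genes in Stra8 IP RNA (red circles) and Ngn3 IP RNA (violet triangles), with bars for the SE of the fit and a dashed line at 2-fold. Hoxb1 and Hoxb2 lie above the line in both mouse lines, Hoxb4 in the Stra8 line alone (1.17 against 0.82 in the Ngn3 line), Hoxb13 in the Ngn3 line alone (0.78 in the Stra8 line against 1.16), and Hoxb3 lies at 0.17 and 0.26.

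Nr0b1, Nr6a1 and Sox2, which encode nuclear receptors and a transcription factor, also rose. Nr0b1, which encodes the orphan receptor DAX1, a repressor of steroidogenic genes, had 3100.1 and 2986 at 4h, against 568 and 1011 at time 0 (2.01 ± 0.31, adjusted p = 2.60e-05). Nr0b1 is also a gene of Sertoli cells, with 6420.5 and 6459.8 in Amh-cre IP RNA at time 0, and at time 0 it was lower in Stra8 IP than in total RNA (-2.51 ± 0.27 as IP minus total). Across the 24 measured Sertoli genes it was the only one called, and the median of the list was -0.21. The part that Sertoli cell RNA has in the rise of Nr0b1 was not tested. Nr6a1, the germ cell nuclear factor that shuts off pluripotency genes, had 2332 and 2264 at 4h, against 1082 and 1043 at time 0 (1.11 ± 0.13, adjusted p = 2.98e-08). Sox2, a pluripotency factor, had 572 and 365 at 4h, against 236 and 196 at time 0 (1.09 ± 0.19, adjusted p = 3.04e-04), and its 2 arrays at 4h lay further apart than those at time 0.

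Cpm, Plat and Pim1 rose as well. Cpm, carboxypeptidase M, which trims basic residues from peptides at the cell surface, had 2170.4 and 1913 at 4h, against 525 and 484 at time 0 (2.02 ± 0.30, adjusted p = 1.54e-05). Plat, tissue plasminogen activator, a secreted protease, had 1838 and 2008 at 4h, against 728 and 730.1 at time 0 (1.40 ± 0.19, adjusted p = 1.22e-06). Pim1, a serine/threonine kinase of cell survival, was among the brightest, with 7975 and 8439 at 4h, against 3696 and 3680.0 at time 0 (1.15 ± 0.11, adjusted p = 3.75e-10). Each of these stood apart without overlap. Gfra3, a co-receptor for the GDNF family ligand artemin, was the called gene nearest the 2-fold limit, with 1417 and 1435 at 4h, against 708 and 710.4 at time 0 (1.01). Just outside were Gdf10 (0.998), Cgn (0.99) and Dact1 (0.99).

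Krt73, Coro2b, Cplane2 and Cidea were also among the 46 genes. Krt73, a keratin of the hair follicle sheath, had 511 and 492 at 4h, against 157 and 155 at time 0 (1.68 ± 0.16, adjusted p = 3.75e-10). Coro2b, an actin-binding coronin, had 796 and 915 at 4h, against 243 and 323 at time 0 (1.61 ± 0.15, adjusted p = 7.27e-11). Cplane2, a GTPase-like factor of cilium assembly, had 424 and 531 at 4h, against 157 and 163 at time 0 (1.57 ± 0.17, adjusted p = 7.75e-09). Cidea, a lipid droplet protein, rose by 1.64 ± 0.35 (518 and 501 at 4h, against 144 and 185 at time 0, adjusted p = 0.00395), and its call was lost without replicate 1 at 4h (adjusted p = 0.0765), replicate 2 at 4h (0.0559) or replicate 1 at time 0 (0.108). Further increases were those of Map3k19 (1.52), a kinase, Pgbd5 (1.47), derived from a transposase, Cln8 (1.41), a membrane protein of the endoplasmic reticulum, Gdap1l1 (1.35), Rhog (1.17), a small GTPase, and Auh (1.10), an enzyme of leucine breakdown that binds RNA.

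For 9 of the 46 genes the 2 arrays at 4h lay more than 0.4 apart on the log2 scale, with replicate 1 above replicate 2 each time. They were Snord14e, Sox2, 4632427E13Rik, Myo7a, Scarna17, Myh11, Rgs11, Myo5b and Snord61. Myo7a, a myosin of hair cells of the ear that is also made in Sertoli cells, had 6096 and 3978 at 4h, against 2135 and 1868 at time 0 (1.30 ± 0.15, adjusted p = 3.94e-08). Myh11, the smooth muscle myosin heavy chain, had 3839.9 and 2629 at 4h, against 1132 and 1413 at time 0 (1.33 ± 0.18, adjusted p = 1.22e-06). It was the only one of 12 measured peritubular myoid genes called, the list's median was -0.02, and its summed intensity was 11265 to 13018 at 4h, against 9733 to 12081 at time 0. Acta2 changed by -0.21, Cnn1 by -0.10 and Tagln by 0.11. The part that peritubular RNA has in the rise of Myh11 was not tested. Scarna17, Snord14e and Snord61 are small RNAs of the nucleus. Scarna17, a guide RNA of Cajal bodies, had 2888 and 1940.4 at 4h, against 944 and 796 at time 0 (1.45 ± 0.29, adjusted p = 0.00152). Without replicate 1 at 4h, Rgs11, Snord61, Sox2, Snord14e, Scarna17 and Myo7a each lost the call, with changes of 0.76 (Sox2) to 1.16 (Scarna17), and Myh11 kept it. For Myo5b and 4632427E13Rik this fit was not recorded. Their replicate 2 at 4h stood 0.76 and 0.52 above the higher time 0 array on the log2 scale.

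Both genes that fell were lower against a time 0 group whose arrays lay far apart. Gask1b, a kinase-like protein of the Golgi, had 357 and 351 at 4h, against 598 and 1079 at time 0 (-1.18 ± 0.31, adjusted p = 0.0274). The microRNA gene Mir181b-1 had 66.9 and 60.1 at 4h, against 101 and 179 at time 0 (-1.08 ± 0.26, adjusted p = 0.0158), where the lowest value on any array was 25.1. Without replicate 2 at time 0 their changes were -0.76 and -0.67. Over the alternative settings, single arrays left out among them, Gask1b lost its call in 4 of 13 and Mir181b-1 in 5 of 12. Their changes in these settings ran from -1.61 to -0.76 and from -1.50 to -0.67. Gask1b was lower in Stra8 IP than in total RNA at time 0 (-1.94), with 3702 and 3623 in Amh-cre IP RNA at time 0, and the time 0 replicate with the higher Gask1b also had the higher Amh and Acta2. The part that somatic RNA has in this fall was not tested. In bulk RNA, fewer cells of a type and less RNA per cell cannot be told apart.

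Few genes that mark the states of spermatogonia were called at 4h, but only 0.241% of all genes were. At that share, lists of this size would hold few or no called genes. Of 24 measured genes of undifferentiated spermatogonia none was called (median -0.004), with Zbtb16, a repressor that keeps the stem cell state, at -0.09 and Gfra1, the GDNF co-receptor, at 0.26. Of 16 genes of differentiating spermatogonia only Stra8 was called. Kit, the receptor that marks differentiating spermatogonia, had 2027 and 2271 at 4h, against 1293 and 929.5 at time 0, and its change of 0.97 ± 0.29 did not pass (adjusted p = 0.0706). Of 31 genes of meiotic entry and prophase only Stra8 was called, with the cohesin Rec8 at 0.58 (adjusted p = 0.274) and the synaptonemal complex gene Sycp3 at -0.01. None of 19 germ cell and piRNA pathway genes, 17 mitosis genes or 20 DNA replication genes was called.

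Of 15 measured genes that respond to GDNF and FGF, none passed the 2-fold minimum, and 3 fell without it. Without that minimum, 55 of all 19938 genes fell and 274 rose. Egr2, a zinc finger factor, had 1746 and 1638 at 4h, against 3075 and 3329 at time 0 (-0.92 ± 0.17, adjusted p = 4.82e-04). Spry4, a feedback inhibitor of receptor kinases, had 661 and 562 at 4h, against 1011 and 1184 at time 0 (-0.84 ± 0.15, adjusted p = 4.38e-04). Lhx1, a homeodomain factor, changed by -0.56 ± 0.15 (adjusted p = 0.0294). The median of the list was -0.26 beside -0.04 over all genes, and Dusp6, a phosphatase that turns off ERK, stood at -0.78 (adjusted p = 0.0641). Of 20 immediate early genes none was called, and only Egr2 passed without the 2-fold minimum.

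None of the measured Leydig cell (8), macrophage (13), endothelial (11) or erythroid (3) genes was called, beside 0.241% of all genes. The summed intensity of the Sertoli list was 33096 to 35033 at 4h, against 27631 to 37917 at time 0, and that of the Leydig list 5197 to 6123, against 4609 to 6875. At 4h both sums lay within their range at time 0. The macrophage sum was 2704 to 2752 at 4h, against 2904 to 3112 at time 0, and the endothelial sum 5368 to 5419, against 5779 to 6805. For these lists both 4h arrays lay below both time 0 arrays. The erythroid sum was 476 to 518, against 516 to 594. The part that somatic RNA has in these levels was not tested.

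The Ngn3 line, which shares no array with the Stra8 line, gave the same contrast on other arrays. In Ngn3 IP RNA 56 genes rose (0.281% of all genes) and 6 fell (0.0301%). Of the 46 genes that rose in Stra8 IP RNA, 26 were called higher in Ngn3 IP RNA, 43 had a change above 0 and 40 one of at least 0.5, with a median of 1.28 beside 0.02 over all genes. The shared calls were 26 of the 46 in the Stra8 line and 26 of the 56 in the Ngn3 line.

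Cyp26a1 in Ngn3 IP RNA had 939.6 and 1002 at 4h, against 71.0 and 72.1 at time 0 (3.76 ± 0.43, adjusted p = 1.14e-08). Rarb had 525 and 528 at 4h, against 117 and 129.8 at time 0 (2.09), and Stra8 1104 and 1261, against 423 and 328 (1.66). Cpm (1.87), Nr0b1 (1.42), Krt73 (1.87), Coro2b (1.96), Plat (1.68), Blvrb (1.39), Pim1 (1.35), Hoxb1 (1.60) and Hoxb2 (1.30) were called higher in this line as well. Hoxb13, which missed the 2-fold minimum in Stra8 IP RNA, was called in Ngn3 IP RNA, with 464 and 333 at 4h, against 176.02 and 175.9 at time 0 (1.16 ± 0.13, adjusted p = 8.48e-09). Cplane2 had 757 and 815 at 4h, against 135 and 140.4 at time 0 (2.51). Tgm2 (0.87, adjusted p = 0.048), Nr6a1 (0.77, adjusted p = 4.68e-05) and Hoxb4 (0.82, adjusted p = 1.91e-07) passed the test without the 2-fold minimum, while Dhrs3 (0.75, adjusted p = 0.325) and Cidea (1.19, adjusted p = 0.0656) did not pass.

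Tested against each other, the changes in the 2 lines differed for 0 of 19938 genes (0%) by limma, with 1 gene passing when no fold minimum was set and 1991 at an unadjusted p under 0.05. Of the 46 genes, 14 had an unadjusted p under 0.05. The differences with the smallest p among them were those of Cplane2 (-0.94 ± 0.24 as Stra8 minus Ngn3, adjusted p = 0.182), Myh11 (0.97 ± 0.25, adjusted p = 0.203) and 4632427E13Rik (1.28 ± 0.36, adjusted p = 0.248), which were picked after their values were seen. Snord61 (-0.26), 4632427E13Rik (-0.25) and Myo5b (-0.07) were the 3 genes at or below 0 in the Ngn3 line. A difference that misses the threshold does not show that the lines changed alike, and for Stra8 itself it was 0.43 ± 0.54. Gfra1, which had not passed in Stra8 IP RNA, rose in Ngn3 IP RNA (1.05 ± 0.18, adjusted p = 6.55e-05), and the difference of -0.80 ± 0.25 did not pass (adjusted p = 0.329). Without replicate 2 of Ngn3 IP at time 0, 41 differences were called.

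**Figure D3:**
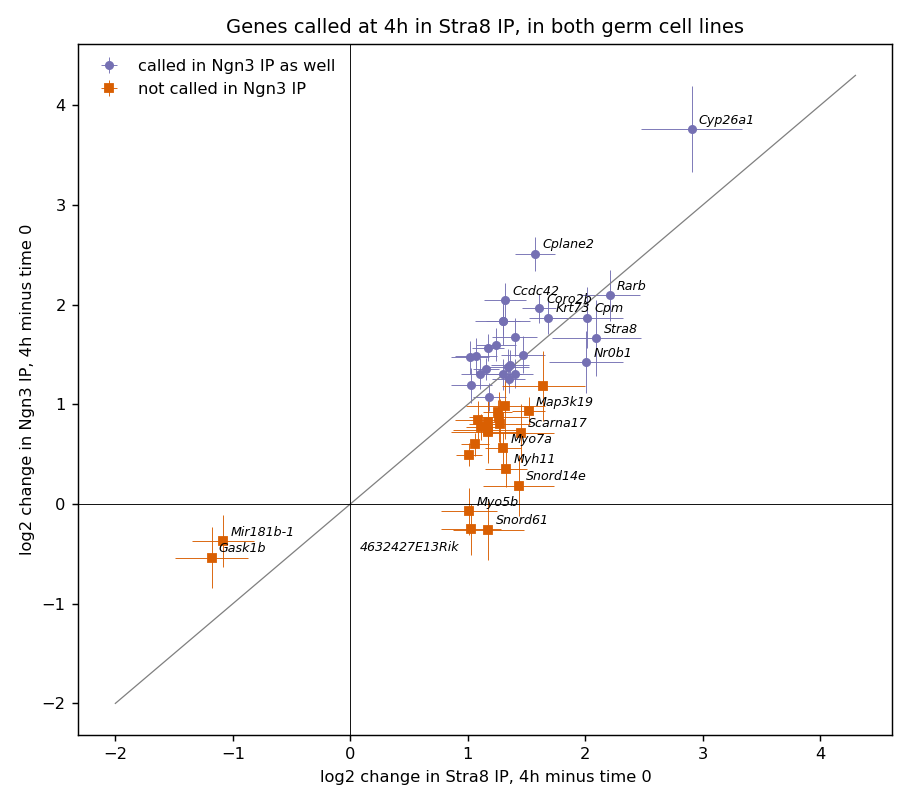
Log2 change at 4h in Stra8 IP RNA (horizontal) and Ngn3 IP RNA (vertical) for the 48 genes called in Stra8 IP RNA, with bars for the SE of the fit and a grey line of equal change. Violet circles are the 26 genes also called in Ngn3 IP RNA, among them Cyp26a1 at 2.91 in the Stra8 line and 3.76 in the Ngn3 line, and orange squares are the others.

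Total RNA of the Stra8 line could not serve as a plain reference for the IP change. Of the 3 arrays labelled 4h, replicate 1 had 368 for Rarb, 172 for Cyp26a1 and 371 for Cpm. Replicates 2 and 3 had 126 and 127 for Rarb, 77.2 and 92.8 for Cyp26a1 and 175 and 145 for Cpm, against 132 to 160.2, 69.8 to 93.3 and 152 to 179 at time 0. So 2 of the 3 arrays labelled 4h stood at or near the time 0 level for these genes, while Kit was 2528 and 2551 on them, 678 on replicate 1 and 763 to 976 at time 0. Across all genes replicate 1 correlated with the others at 0.958 and 0.959, and they with each other at 0.998. In this comparison 77 genes were called (0.386%), 41 higher (0.206%) and 36 lower (0.181%), and none of the 46 genes was among them (median 0.08). The Ngn3 total arrays had 263 and 235 for Cyp26a1 at 4h, against 74.8 and 63.2 at time 0, and 11 of the 46 genes were called higher there (0.251% of all genes were, and 0.0502% were lower), with a median of 0.60.

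Nr0b1 showed the same order in whole testis of the Ngn3 line, with 8328 and 8722 at 4h, against 3747 and 3937 at time 0. Rdh10, which missed the threshold in Stra8 IP RNA, had 3168 and 3255 in Ngn3 total RNA at 4h, against 516 and 526 at time 0, and 1281 and 1283 in Ngn3 IP RNA, against 583 and 556. Cidea had 2079 and 2019.9 in Ngn3 total RNA at 4h, against 426 and 539 at time 0. For Nr0b1 (mean 1841 in Ngn3 IP RNA at 4h), Rdh10 and Cidea the 4h level was higher in total than in IP RNA of that line.

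**Figure D4:**
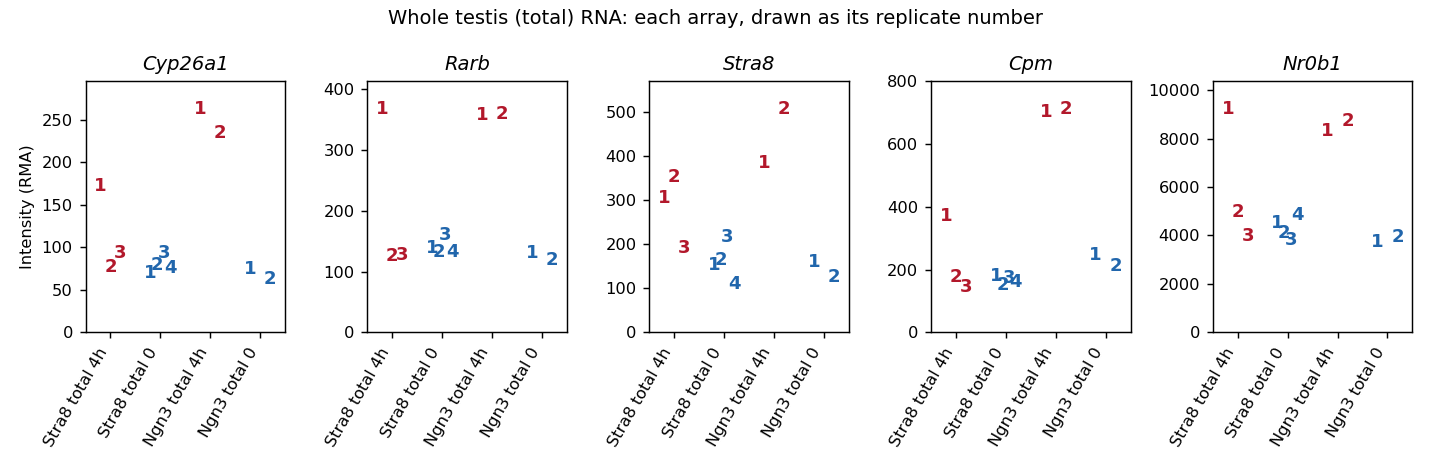
Intensity (RMA, linear axis) of 5 genes on each total RNA array, drawn as its replicate number, at 4h (red) and time 0 (blue) in the Stra8 and Ngn3 lines. For Cyp26a1, Rarb, Cpm and Nr0b1, replicate 1 of Stra8 total RNA labelled 4h stands apart from replicates 2 and 3, which lie near time 0, as for Rarb with 368 against 126 and 127.

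Set against Stra8 total RNA, the change in IP RNA differed for 166 genes (0.833%), 125 with a higher change in IP RNA (0.627%) and 41 with a lower one (0.206%). Without replicate 1 of total RNA labelled 4h the count was 503, so this test rests on which of those arrays is used. The largest differences (IP minus total) were those of Cyp26a1 (2.47), Stox2 (1.95), Snord61 (1.93), Coro2b (1.85) and Rarb (1.84). In the other direction were Dmrtb1 (-3.03), Prss50 (-2.14), Crabp1 (-1.96), Tsx (-1.94) and Tpbgl (-1.86), which were high on total RNA replicates 2 and 3 labelled 4h, as Dmrtb1 with 1794 and 2202 on them, 172 on replicate 1 and 139 to 225 at time 0.

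At time 0, before any RA was given, the genes that later rose were not of 1 kind by fraction. IP and total RNA at time 0 differed for 2572 genes (12.9%), 1218 higher in IP RNA (6.11%) and 1354 lower (6.79%). Of the 46 genes that rose at 4h, 5 were called higher in IP RNA and 10 lower. Cpm (1.61 as IP minus total), Tm4sf5 (1.28), Gfra3 (1.32), Themis2 (1.75) and Stox1 (1.16) were higher in germ cell IP RNA. Among the 10 that were lower there than in whole testis were Nr0b1 (-2.51), Rhog (-1.53), Cidea (-1.49), Dhrs3 (-1.46), Tgm2 (-1.31) and Blvrb (-1.22). These values use the same IP arrays at time 0 as the change at 4h.

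The later Stra8 IP arrays, 2 at each of 12h, 24h, 48h, 4d, 6d and 8d, give the levels of the same genes afterwards. Between 4h and 12h, 142 genes were called (0.712%), 30 higher (0.15%) and 112 lower (0.562%) at 12h, and the 4h arrays are shared with the change described above. Cyp26a1 had 88.8 and 90.1 at time 0, 623 and 720.4 at 4h, 149 and 156 at 12h, 131 and 244 at 24h, 106 and 104 at 48h, 86.1 and 87.4 at 4d, 258 and 234 at 6d, and 153 and 111 at 8d. Its 12h minus 4h difference was -2.14, and the arrays of 6d stood above those of time 0 again. Rarb had 232 and 270.4 at 12h and 253 and 262 at 6d. Stra8 had 2073 and 2386 at 12h, where its difference from 4h did not pass (0.78, adjusted p = 0.231), 1313 and 1848 at 24h, and 1072.5 and 808 at 48h. Its levels were thus lower at 24h and 48h than at 12h. Its 2 arrays at 4d lay far apart (320.0 and 1119.9), as did Amh on them (1688 and 535), and at 6d it had 4039.9 and 3172, its highest levels on these arrays.

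Several genes were back near their time 0 level by 12h, among them Krt73 (181 and 182), Hoxb2 (261 and 219.9), Hoxb4 (151 and 132) and Cpm (468 and 508). Pgbd5 was still high at 12h with 1679 and 1531, and so were Blvrb with 1555 and 1478, Gdap1l1 with 1076 and 869.6 and Gfra3 with 1336 and 1357. At 24h Pgbd5 had 512 and 674, against 550.1 and 541 at time 0, and Gdap1l1 383 and 413, against 328 and 305. Nr6a1 fell back only in part, with 1414 and 1655 at 12h, and had 2323 and 2376 at 8d, close to its level at 4h. Nr0b1 had 990.2 and 909 at 12h but 691 and 3113 at 24h, where the replicates lie apart, as they do for Cidea (148 and 398) and Dhrs3 (406 and 947). The Sertoli gene Amh was 345 and 932 on those arrays, and its part in this spread was not tested.

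The genes with the largest falls between 4h and 12h were Hsd17b3, the testicular enzyme that makes testosterone (-3.07), Snora23 (-2.44), 4632427E13Rik (-2.21), Cyp26a1 (-2.14) and Cpm (-2.06). Those with the largest rises were Septin14 (2.32), Scd1 (1.83), a fatty acid desaturase, St8sia1 (1.59), Tmem255a (1.58) and H2ac4 (1.45), a histone gene. At time 0 the mean of Hsd17b3 was 2980.5 in Amh-cre IP RNA, against 981.2 in Stra8 IP RNA. That of Septin14 was 3715 against 408.6, and that of Cpm 130.1 against 504.5. The part that somatic RNA has in these differences was not tested. Kit, which had not passed at 4h, had 3917 and 4582 at 12h. It was not called in 12h minus 4h, nor was any of the 16 measured genes of differentiating spermatogonia (highest change 0.999).

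**Figure D5:**
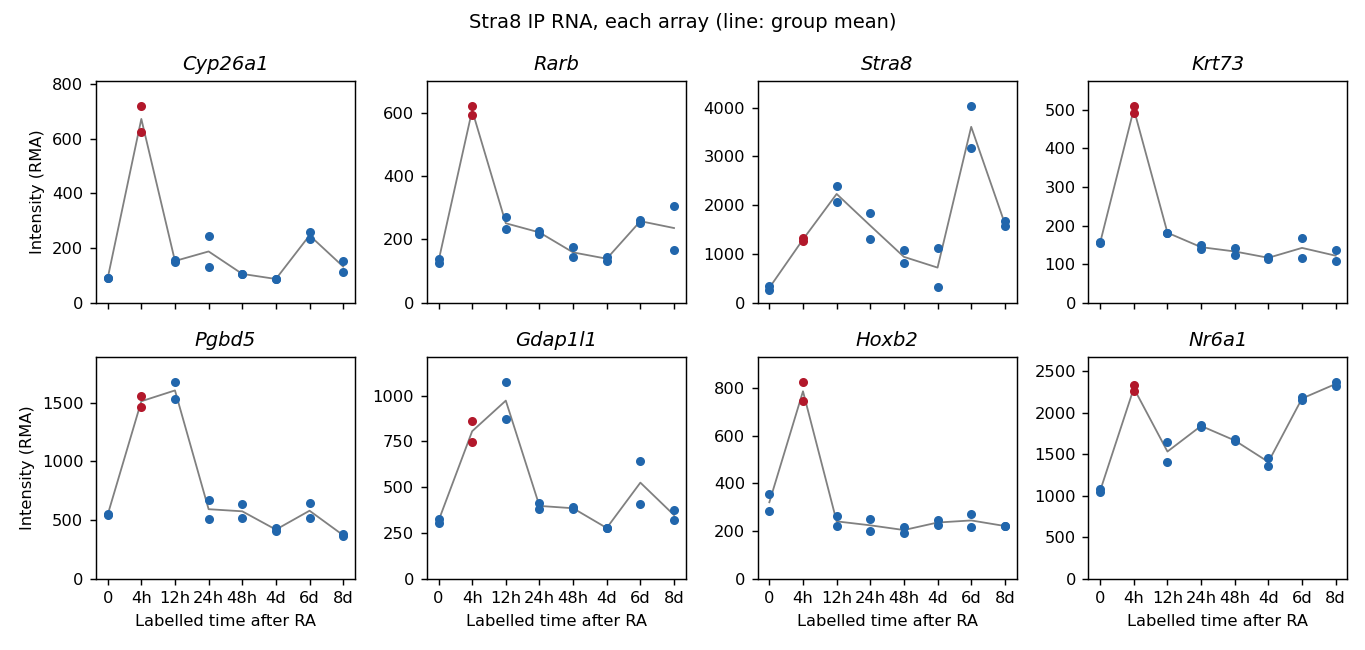
Intensity (RMA, linear axes from 0) of 8 genes on each Stra8 IP array by labelled time after RA, with times evenly spaced rather than to scale, the 4h arrays in red and a line through the group means. Cyp26a1, Rarb, Krt73 and Hoxb2 peak at 4h, Pgbd5 and Gdap1l1 stay up at 12h, and Stra8 is highest at 6d with 4039.9 and 3172.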

How the data were processed

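Gene expression was measured on 1-colour Affymetrix gene-level arrays. Per the labels' protocols, RNeasy RNA was turned into cDNA (Ovation V2) and biotin-labelled (Encore). The deposited values are intensities on a linear scale made with RMA, per the submitters' processing notes, and its software, settings and the arrays it was run on together were not given in the sources used here. RMA levels reach down to a floor (array minima 25.1 to 26.3), so changes of dim genes are compressed. Array medians were 252.6 to 300.5. Arrays have no read depth, and their number limits the precision. Values were log2-transformed without further scaling. Of 28853 probe sets, 5443 without a listed gene and 1621 with several genes were left out, and the probe set with the highest mean was used for 999 genes with several, which left 19938 genes.

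One limma 3.58.1 model (R 4.3.3) gave each of the 35 groups a mean over all 77 arrays, with empirical Bayes moderation, an intensity trend and Benjamini-Hochberg adjustment over all genes. The tests were two-sided. The fit was tested on simulated data. Named genes were the 40 largest called changes in each direction with arrays that did not overlap, predicted or clone symbols left out, called members of 19 gene lists, all measured genes of RA receptors, degradation and synthesis, and the 5 largest in each direction of the other differences. Genes named outside this rule, among them Gfra3, Myo5b, Taf1d, Themis2 and those just outside the limit, were chosen after their values were seen. The contrast, its markers, the lists and the tests were chosen with earlier results of these data known. List genes without a single-gene probe set were not analysed here. Promoter windows are from RefSeq (GRCm38.p6). Alternatives were no fold minimum, quantile normalization, median centring, the dimmest 30% of genes left out, probe set means, no intensity trend, the compared groups alone, a replicate block, no Amh arrays labelled 4h and 4d, and each array left out.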

Additional observations from a re-analysis of the deposited data

How the results depend on the processing

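The count of 48 genes called in Stra8 IP RNA was 41 to 53 with quantile normalization, median centring, the dimmest 30% of genes left out, probe set means, no intensity trend, the compared groups alone, the replicate block, or the 4h and 4d Amh arrays left out. With no 2-fold minimum the counts were 329 in Stra8 IP, 410 in Ngn3 IP, 3314 in Stra8 total and 234 in Ngn3 total RNA, 1 for the difference between lines, 1052 for IP minus total, 1550 for 12h minus 4h and 10140 for IP minus total at time 0. Quantile normalization gave 2 differences between lines, both lower, against 0. With the compared groups alone, Stra8 total RNA gave 17 calls and the difference of IP from total 12, where fewer arrays estimate the spread.

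Leaving out 1 array at a time gave 37 to 63 calls in Stra8 IP, 52 to 123 in Ngn3 IP, 54 to 310 in Stra8 total, 42 to 45 in Ngn3 total, 0 to 41 for the difference between lines, 59 to 503 for IP minus total, 108 to 146 for 12h minus 4h and 2101 to 3014 for IP minus total at time 0. A group left with 1 array was assumed to vary like the others. The 123 and the 41 came without Ngn3 IP replicate 2 at time 0, and the 310 and 503 without Stra8 total replicate 1 labelled 4h. In Stra8 IP RNA, 19 genes fell without replicate 1 at time 0, and 0 without either 4h array. Median centring gave 104 higher and 66 lower differences of IP from total, against 125 and 41.

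Over 42 named genes, 499 of the values under these settings kept their side of the threshold, 39 did not and 0 turned sign. Deviations of same-numbered arrays at 4h and time 0 from their group means correlated at -0.17 in Stra8 IP and -0.14 in Ngn3 IP. With so few arrays in a group, the deviations of its replicates mirror each other, and every replicate gives the same value. These correlations therefore cannot tell whether same-numbered arrays belong together. The replicate block left 48 calls in Stra8 IP and moved the difference of IP from total to 86 against 166. It changed no call among the 42 named genes. With the numbers at 4h crossed, chosen after seeing the data, the block gave 48 calls in Stra8 IP and 62 in Ngn3 IP. The causes of these shifts were not tested.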

Other observations

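Small guide RNAs of the nucleolus and Cajal bodies, chosen as a family after their values were seen, are described here in Stra8 IP RNA at 4h and at 12h. Of 54 measured snoRNA and scaRNA genes, 3 were called higher at 4h (0.231% of all genes were), with a median of 0.36 beside -0.04 over all genes. At 12h, 16 were called lower than at 4h (0.562% of all genes were), with a median of -0.67 beside 0.05 over all genes. Both comparisons use the same 2 arrays at 4h. In Ngn3 IP RNA none was called at 4h (median -0.002). Snord61 had 131 and 99.1 at 4h, against 43.5 and 58.6 at time 0, and 32.0 and 33.5 at 12h. Taf1d, whose introns hold snoRNAs, had 3129 and 2266 at 4h, against 1172 and 1758 at time 0, and 632 and 685 at 12h. For the 3 called genes replicate 1 at 4h was above replicate 2, and its part in the values was not tested.

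Of 302 measured microRNA genes, Mir181b-1 alone was called at 4h in Stra8 IP RNA (0.241% of all genes were). None was called in Ngn3 IP RNA (0.311% of all genes were). The array values do not separate the arms of a microRNA from its precursor.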
